A study of Mus musculus with 6 samples.

Results

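The cold-inducible RNA-binding proteins Rbm3 and Cirbp and 8 heat-shock proteins were followed in atrial RNA of obese and lean mice. They are 10 of the 43432 genes in the deposited table, and each matched 1 row by its symbol. The 10 genes were chosen by name with their values under both diets already known, so their differences between diets are a description and support nothing, and the calls of the fit over all genes are printed for them once with nothing read from them. The 8 heat-shock genes were Hspa1a, Hspa1b, Hsph1, Hspb1, Dnajb1, Hsp90aa1, Hspa8 and Hspd1.

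All 6 mice were wild-type C57/Bl6J mice. Obese mice (n = 3) received a high-fat diet (HFD) and lean mice (n = 3) received control chow for 10 weeks, beginning when they were 6 weeks old, and RNA came from right and left atrial tissue. Each mouse was assigned its diet from its sample title, which the column names of the table repeat. The treatment entry of the same labels states the other diet in all 6 cases, so every direction below holds only if the titles are right. The labels name separate samples but do not state whether a sample was 1 mouse or a pool, and each is called a mouse here.

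The libraries held between 15874251 (obese mouse 3) and 28971508 (lean mouse 2) reads on genes, of which 19.5% (obese mouse 3) to 30.7% (lean mouse 2) lay on mitochondrial genes. Values are normalized counts, which are read counts divided by 1 size factor per library. Every member was well above the count of 3 reads taken as the smallest signal, and the lowest, Hspa1b in obese mouse 2, rested on 89 reads. The 6 atrial cardiomyocyte markers (Nppa, Myl7, Myl4, Sln, Nr2f2, Bmp10) summed to between 286484 and 519638 normalized counts in every library, and none of them was at 0. These are whole-tissue values, in which fewer cells of a type and less RNA per cell cannot be told apart.

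Heat-shock proteins are chaperones that bind unfolded proteins. Hspa8 is the constitutive and Hspa1a and Hspa1b are the stress-inducible HSP70, Dnajb1 is an HSP40 that hands clients to HSP70, and Hsph1 is an HSP110 that exchanges its nucleotide. Hsp90aa1 is the inducible HSP90, Hspb1 a small heat-shock protein that holds clients and is abundant in heart muscle, and Hspd1 the chaperonin of the mitochondrial matrix. Heat-shock factor HSF1 activates many of these genes through heat-shock elements, which are alternating copies of GAA and TTC spaced by a pair of bases. Rbm3 and Cirbp bind RNA, rise under mild cooling and fall with warming, and follow the daily rhythm of body temperature.

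The sequences below show which members hold exact letter matches to units of a heat-shock element close to a start site. Imperfect elements are not found by such a search. The RefSeq promoter table (GRCm38.p6) held 11 promoters of 7 members, all but Rbm3, Hsp90aa1 and Hspa8. The 250 bases upstream of each start were searched for 2 adjacent units, GAANNTTC or TTCNNGAA, and for 3 units, GAANNTTCNNGAA or TTCNNGAANNTTC. Each 2-unit motif reads the same on both strands, and the pair of 3-unit motifs are each other's reverse complement, so both strands were covered. Of all 32851 promoters, 12.8% held a 2-unit match and 0.466% a 3-unit match. A 2-unit match was present in 5 members, and matches are in capitals:
Hspa1a, chr17:34972233-34972280, minus strand: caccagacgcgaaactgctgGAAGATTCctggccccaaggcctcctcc
Hspa1b, chr17:34959315-34959362, minus strand: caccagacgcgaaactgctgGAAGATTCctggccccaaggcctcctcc
Hsph1, chr5:149636351-149636380, minus strand: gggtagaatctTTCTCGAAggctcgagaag
Hspb1, chr5:135887782-135887849, plus strand: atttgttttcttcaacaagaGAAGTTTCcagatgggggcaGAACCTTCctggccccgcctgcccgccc
Hspd1, chr1:55088053-55088082, minus strand: ggggccTTCCGGAAGGTTCTAGAAcggacc

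Hspa1a and Hspa1b carried the same stretch, with the match beginning 104 bases upstream of the start. Hsph1 had its match 33 bases upstream of its first start and 54 bases upstream of its second, and 26 of the 30 bases shown also lie in an annotated first exon. Hspb1 had 2 separate matches, 117 and 97 bases upstream. Only Hspd1 among these members held a 3-unit match: its second promoter carried 2 overlapping ones, 144 and 139 bases upstream, in a stretch that 1 annotated transcript of Hspd1 includes in its first exon. No match to these units was found in either Dnajb1 promoter, either Cirbp promoter or the first Hspd1 promoter. The second Dnajb1 window, bases 83608298 to 83608547 of chromosome 8, lies inside the gene.

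The octamer TCCCCGCC, known as a mild-cold response element from Cirbp, was searched on both strands and was present in 4.64% of all promoters. It is in capitals in the first Cirbp promoter, where it lies near the far end of the window:
Cirbp, chr10:80167589-80167619, plus strand: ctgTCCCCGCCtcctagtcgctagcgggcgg

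The Hspa1a and Hspa1b promoters each held 1 such octamer too. These are matches of letters and not measured binding.

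Rbm3 (ENSMUSG00000031167, chromosome X, 8138975 to 8145880, GRCm38) had 853, 809.7 and 896 normalized counts in obese mice 1, 2 and 3, against 1524, 1665 and 1825 in lean mice 1, 2 and 3. All 3 obese mice were below all 3 lean mice, and neither group spread by more than 1.2-fold. The means were 853 ± 43.2 (SD, n = 3) in obese and 1671 ± 151 (SD, n = 3) in lean atria, a log2 difference of -0.97 (standard error 0.12). Leaving out any 1 mouse kept this difference between -1.03 and -0.90. Rbm3os, the antisense gene that shares 94 bases of exon with Rbm3, had at most 3.36 normalized counts in any library.

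Cirbp (ENSMUSG00000045193, chromosome 10, 80165985 to 80172786) was also lower in every obese mouse, but unevenly. It had 674, 853 and 299 normalized counts in obese mice 1 to 3 and 880.1, 884 and 1067 in lean mice 1 to 3. The groups did not overlap, but obese mouse 2 came close to the lowest lean mouse while obese mouse 3 was far below every other mouse. The log2 difference was -0.76 (standard error 0.31), and -0.31 without obese mouse 3.

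The lean mice had the same order for both RNA-binding genes, with lean mouse 3 highest and lean mouse 1 lowest, although lean mice 1 and 2 hardly differed for Cirbp. The obese mice did not: obese mouse 3 was the highest obese mouse for Rbm3 and the lowest for Cirbp.

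Hsph1 (ENSMUSG00000029657, chromosome 5, 149614287 to 149636376) was the heat-shock gene with the largest difference between the diets. It had 1833, 2281 and 3347 normalized counts in obese mice 1 to 3, and 1233, 1019 and 1116 in lean mice 1 to 3. The groups did not overlap, and obese mouse 3 was the highest. Mean Hsph1 was 2487 ± 778 under the HFD and 1123 ± 107 under control chow (SD, n = 3), and the log2 difference of 1.11 (standard error 0.19) was 0.87 without obese mouse 3.

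Hsp90aa1 (ENSMUSG00000021270, chromosome 12, 110690605 to 110702728) followed the same order of mice as Hsph1 from highest to lowest. Its normalized counts were 6326, 8311 and 14749 in obese mice 1 to 3 and 5084, 4643 and 5037 in lean mice 1 to 3. The lean mice were within 1.1-fold of each other, whereas the obese mice spread over 2.33-fold. The log2 difference was 0.90 (standard error 0.25), and 0.56 without obese mouse 3.

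Hspd1 (ENSMUSG00000025980, chromosome 1, 55077835 to 55088243) was higher in all obese mice by a smaller margin. It had 3547, 3228 and 4565 normalized counts in obese mice 1 to 3 and 2798, 3103 and 3038 in lean mice 1 to 3. The lowest obese mouse and the highest lean mouse lay close together, so the separation rested on a narrow gap. The log2 difference was 0.33 (standard error 0.14), and 0.18 without obese mouse 3. Hspe1, the co-chaperonin that works with Hspd1 and starts on the opposite strand, sharing 112 bases of exon with it, had 1366, 1268 and 2161 normalized counts in obese mice 1 to 3 and 1123, 1254 and 1035 in lean mice 1 to 3.

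The other 5 heat-shock genes overlapped between the diets. The inducible HSP70 gene Hspa1a (ENSMUSG00000091971, chromosome 17, 34969190 to 34972156) had 236, 299 and 678 normalized counts in obese mice 1 to 3 and 441, 189.6 and 376 in lean mice 1 to 3. Its neighbour Hspa1b (ENSMUSG00000090877, chromosome 17, 34956436 to 34959238) had 151, 90.8 and 319 in obese and 153, 79.4 and 113 in lean mice. In both genes obese mouse 3 was the highest and lean mouse 2 the lowest of the 6, and the other obese mice lay within the range of the lean mice. The log2 difference was 0.20 (standard error 0.39) for Hspa1a and 0.55 (standard error 0.40) for Hspa1b. Without obese mouse 3 these were -0.25 and 0.07, and without lean mouse 2 that of Hspa1a was -0.17.

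Hspb1 (ENSMUSG00000004951, chromosome 5, 135887919 to 135889563) showed the widest spread of all members. It had 1973, 2959.5 and 8483 normalized counts in obese mice 1 to 3 and 3206, 2324 and 2718 in lean mice 1 to 3. Obese mouse 3 was 2.65 times the next highest mouse, while obese mouse 1 was the lowest of the 6. The log2 difference of 0.43 (standard error 0.41) became -0.17 without obese mouse 3.

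Hspa8 (ENSMUSG00000015656, chromosome 9, 40800984 to 40805200) had 27780.2, 24398 and 38924 normalized counts in obese mice 1 to 3 and 28474, 23689 and 23632 in lean mice 1 to 3. Only obese mouse 3 lay above the lean range, and the log2 difference was 0.24 (standard error 0.18), or 0.05 without that mouse. Dnajb1 (ENSMUSG00000005483, chromosome 8, 83608175 to 83611902) had 415, 369 and 574 normalized counts in obese and 598, 459.9 and 459 in lean mice. It was the only heat-shock member whose highest value was in a lean mouse, and its log2 difference was -0.17 (standard error 0.18).

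**Figure D1:**
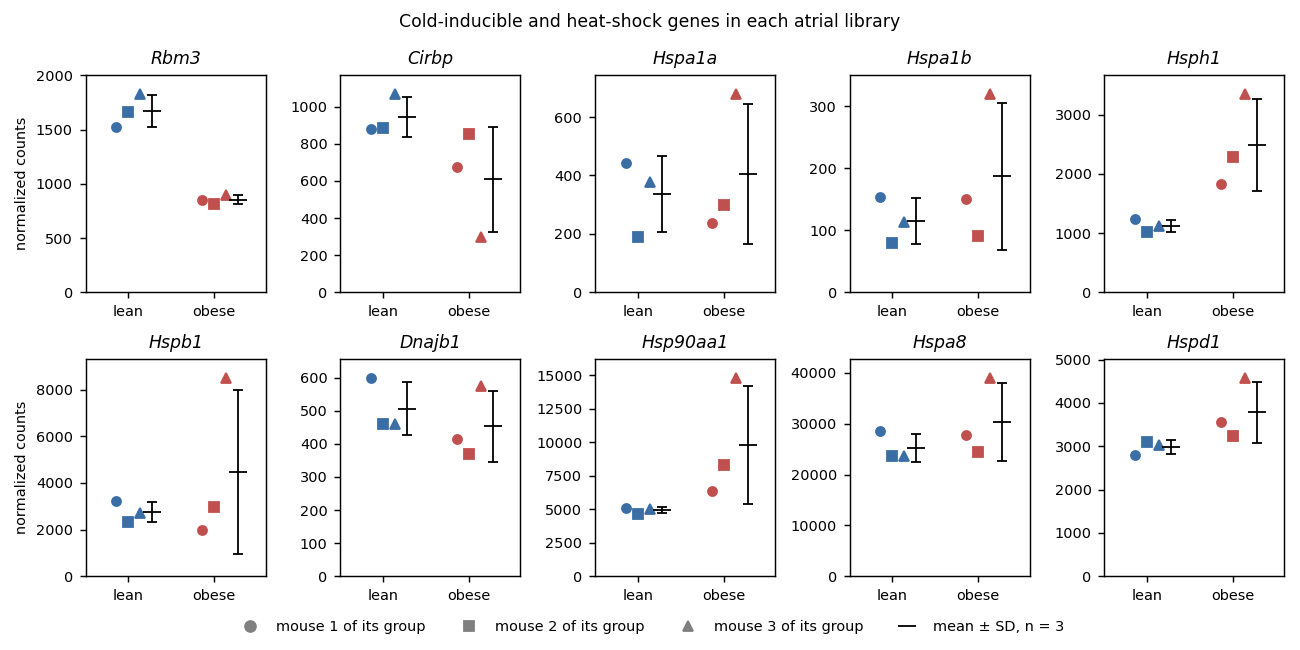
Normalized counts (vertical axes, from 0, each gene on its own scale) of the 10 genes in each lean (blue) and obese (red) mouse, with mean ± SD (n = 3) in black. Rbm3 shows 2 tight, separate groups, while the obese triangle, obese mouse 3, stands highest of 6 for 7 of the 10 genes and lowest for Cirbp.

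In a limma fit over all 15275 genes tested, 114 genes passed an adjusted p of 0.05 (0.746%), 0.484% higher and 0.262% lower in obese atria. Of the members, all of which passed the minimum mean of 10 normalized counts, Hsph1 was among the higher and Rbm3 among the lower genes, and the other 8 were not called. The groups did not overlap for 5 of the 10 members (Rbm3, Cirbp, Hsph1, Hsp90aa1 and Hspd1), against 18.0% of all genes tested. The members were chosen with this contrast known, so nothing is read from these counts. The call of Rbm3 was lost without lean mouse 2 (log2 difference -0.97) and without a variance trend. The call of Hsph1 was lost without obese mouse 2 (1.15), lean mouse 1 (1.18), lean mouse 2 (1.04) or lean mouse 3 (1.104), and without a variance trend.

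**Figure D2:**
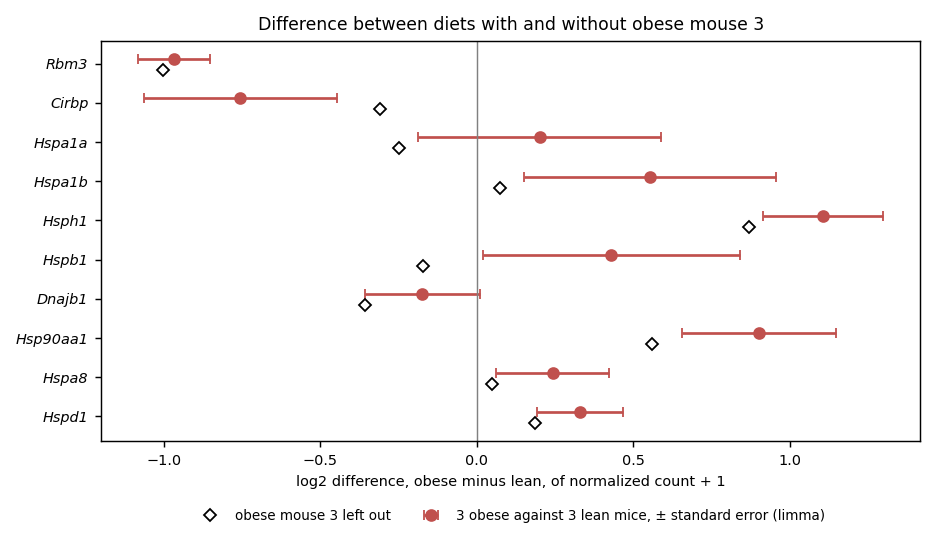
Log2 difference, obese minus lean, of each member on the log2(normalized count + 1) scale (horizontal axis), with all 6 mice (red, ± standard error from limma) and with obese mouse 3 left out (open diamonds). Rbm3 is at -0.97 or lower and Hsph1 at 0.87 or more, whereas Hspa1a and Hspb1 change sign.

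Levels can be compared between genes only per length, so normalized counts were divided by the kilobases of annotated exon. That length joins the exons of all annotated transcripts, 11 each for Rbm3 (4698 bases) and Hsph1 (7266 bases). Hspa1a and Hspa1b have 1 annotated transcript each. A joined length can exceed that of the RNA made and so understate a gene, and close ranks in the order below are not settled. In lean atria the order was Hspa8 (5874 ± 646 normalized counts per kb, SD, n = 3), Hspb1 (2667 ± 428), Hsp90aa1 (1252 ± 61.7), Hspd1 (1128 ± 60.8), Cirbp (362 ± 41.0), Rbm3 (356 ± 32.1), Dnajb1 (158 ± 24.9), Hsph1 (154.5 ± 14.7), Hspa1a (113 ± 44.0) and Hspa1b (41.1 ± 13.2). The constitutive HSP70 gene Hspa8 stood highest by this measure. Among neighbours in that order, the lean mice overlapped for Cirbp and Rbm3, for Dnajb1 and Hsph1, and for Hsph1 and Hspa1a. In obese atria Hsph1 came next after Hspd1, at 342 ± 107 normalized counts per kb, above Cirbp (234 ± 109) and Rbm3 (182 ± 9.20), although Cirbp and Hsph1 overlapped between mice.

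**Figure D3:**
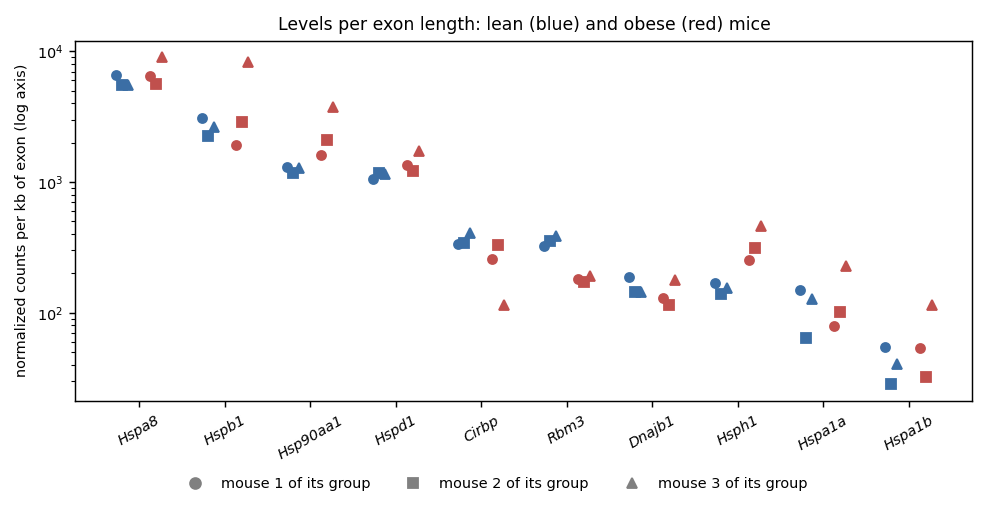
Normalized counts per kb of annotated exon (vertical log axis) of each member in each lean (blue) and obese (red) mouse, ordered by the lean mean. Hspa8 lies highest at 5494 to 9050 and Hspa1b lowest at 28.3 to 114.

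Some of these levels depend on near-identical copies, since the authors kept only uniquely mapped 50-base reads. Division by the whole exon length understates a gene with few unique windows, most of all Hspa1a and Hspa1b, so their place in the order is not settled. Of the 50-base windows of the annotated transcripts, 33.7% of Hspa1a and 37.7% of Hspa1b occur in no other gene, and of the 1935 shared windows of Hspa1a, 1716 are common to both. Added together, Hspa1a and Hspa1b had 387, 389.6 and 997 normalized counts in obese mice 1 to 3 and 595, 269 and 489 in lean mice 1 to 3, so obese mouse 3 was the highest by either count. The unique share was 49.9% for Hspb1, 52.5% for Hsp90aa1, 57.9% for Hspd1 and 60.6% for Hspa8, each of which shares more windows with a pseudogene than with any other gene. Hsp25-ps1, which shares 503 windows with Hspb1, had 221, 339 and 977 normalized counts in obese and 405, 179 and 240.5 in lean mice. Hspd1-ps3, which shares 1016 windows with Hspd1, had 2148, 2378 and 2895 in obese and 1856, 1793 and 1930 in lean mice. Gm12346, the copy of Hsp90aa1, had 445, 371 and 853 in obese and 334, 177 and 226 in lean mice. Gm15459, the copy of Hspa8, had 3291, 3919 and 6031 in obese and 2376, 1182 and 3061 in lean mice. Each of these copies was highest in obese mouse 3. Because a copy shares windows with its member, this is not a separate observation. Whether reads of a member were counted on its copy was not tested. Rbm3 (90.3%), Dnajb1 (99.6%), Cirbp (100%) and Hsph1 (100%) were little touched by such sharing.

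Obese mouse 3 set much of the spread. It was the highest of the 6 mice in 7 of the 8 heat-shock genes, against 20.3% of all genes tested, and the lowest for Cirbp, against 19.0%. Compared with the mean of obese mice 1 and 2, it was higher in 8 of 8 heat-shock genes, beside 7610 of all 15275 genes tested. The median of this difference on the log2 scale was 0.87 for the 8 genes and -0.00 for all genes tested. The log2 difference between obese mouse 3 and the other obese mice was 1.81 for Hspb1, 1.44 for Hspa1b, 1.35 for Hspa1a, 1.02 for Hsp90aa1 and 0.71 for Hsph1. It was 0.58 for Hspa8, 0.55 for Dnajb1 and 0.43 for Hspd1. Of 15275 genes, 152 had a larger rise in this mouse than Hspb1, and 316 had a larger fall than Cirbp, at -1.34. Rbm3 differed by only 0.11 in the same mouse. The members with a letter match shown above were Hspb1 (1.81), Hspa1b (1.44), Hspa1a (1.35), Hsph1 (0.71) and Hspd1 (0.43). Dnajb1, without a match, was at 0.55, but 1 of its 2 searched windows lies inside the gene. Hsp90aa1 and Hspa8 had no promoter to search. The part of these matches in the differences was not tested. The members were chosen with their values known, so these counts and differences are a description and nothing is read from them. With 1 mouse they also have no replicate check.

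The other chaperone and temperature-linked RNA-binding genes were described from lists of textbook families, 106 genes outside the members. Of these, 105 were found, all but Hspa14, and 100 were tested. In the limma fit, 0 of 100 passed an adjusted p of 0.05, 12 higher and 3 lower genes had an unadjusted p under 0.05, and the median log2 difference was 0.08, beside 0.00 for all genes tested. Of all genes tested, 6.66% were higher and 5.55% lower at that unadjusted p. edgeR's quasi-likelihood test also called 0 and DESeq2 called 2, of which Fkbp5 is described here.

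The gene nearest the threshold was Fkbp5, an HSP90 co-chaperone that is also a glucocorticoid target. It had 1380.3, 1328 and 613 normalized counts in obese mice 1 to 3 and 441, 408 and 277 in lean mice 1 to 3, so that all obese mice were above all lean mice. Its log2 difference was 1.497 (limma, standard error 0.29, adjusted p = 0.0509, with 7.8e-07 to 0.237 over the alternatives). Unlike the heat-shock members, Fkbp5 was lowest among the obese mice in obese mouse 3, and without that mouse it was called (log2 difference 1.88, adjusted p = 0.00099).

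In the HSP70 and HSP110 family, 2 of 10 genes were higher and 1 lower at an unadjusted p under 0.05 (6.66% and 5.55% of all genes), and the median log2 difference was 0.16. The atypical members Hspa12a and Hspa12b did not pass in opposite directions, at -0.48 (limma adjusted p = 0.184) and 0.43 (adjusted p = 0.193). Of 3 HSP90 genes, the endoplasmic reticulum form Hsp90b1 was at 0.40 (adjusted p = 0.394) and the constitutive cytosolic form Hsp90ab1 at 0.29 (adjusted p = 0.472). Of 12 DNAJA and DNAJB genes, 2 were higher at that unadjusted p (6.66% of all genes), Dnaja4 at 0.33 and Dnajb2 at 0.29 (adjusted p = 0.233 and 0.322).

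Of 6 small heat-shock genes, Hspb6, an abundant form of muscle, was at 0.53 (limma adjusted p = 0.224) and Hspb2 at -0.21 (adjusted p = 0.62). Of 9 chaperonin genes, Hspe1 was at 0.45 (adjusted p = 0.364) and Cct7, a subunit of the cytosolic chaperonin, at 0.19 (adjusted p = 0.574). Among 24 co-chaperones, with a median of 0.16, Ahsa1, which activates the HSP90 ATPase, was at 0.42 (adjusted p = 0.200). The 6 heat-shock factors and regulators had a median of -0.12, with Hsbp1, a binding protein of HSF1, at -0.20 (adjusted p = 0.506) and Hikeshi, a nuclear importer of HSP70, at 0.18 (adjusted p = 0.691). None of these genes passed the threshold.

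The 20 classical HSF1 targets, of which 16 also stand in another list, had a median log2 difference of 0.27, and 18 of 20 were positive, as were 50.8% of all genes tested. At an unadjusted p under 0.05, 5 were higher and 0 lower, Ahsa1 and Hspe1 among the higher, against 6.66% and 5.55% of all genes. Obese mouse 3 was the highest of the 6 in 17 of 20, beside 20.3% of all genes tested. The median difference between the other obese mice and the lean mice was 0.12 in these 20 genes.

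Across the 73 listed chaperone and heat-shock genes tested, obese mouse 3 was the highest mouse in 47, beside 20.3% of all genes tested. It lay above the mean of obese mice 1 and 2 in 59, beside 7610 of all 15275 genes tested. It was the highest in 6 of 6 small heat-shock genes, 8 of 9 chaperonins, 9 of 12 DNAJA and DNAJB genes, 13 of 24 co-chaperones, 2 of 3 HSP90 genes and 5 of 10 HSP70 and HSP110 genes. Among the 6 heat-shock factors and regulators it was the highest in 2 and the lowest in 2 (20.3% and 19.0% of all genes tested). Some of the largest differences, chosen after their values were seen, were in Hspa1l, the HSP70 gene next to Hspa1a (142, 146 and 497 normalized counts in obese mice 1 to 3 and 279.9, 146 and 262 in lean mice), and in Serpinh1, the collagen chaperone HSP47 (4153, 4265 and 12020.5 in obese and 5559, 5257 and 4387 in lean mice). Dnajb5, an HSP40 of muscle, had 777, 932 and 2599 normalized counts in obese and 1465, 1039 and 1612 in lean mice. The heat-shock factor gene Hsf1, named for its role, lay between 618 and 777 normalized counts in all 6 mice.

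The 27 splicing kinases and RNA-binding genes linked to temperature, which include the CLK kinases and the SR proteins they phosphorylate, had a median log2 difference of 0.00. At an unadjusted p under 0.05, 0 were higher and 1 was lower (6.66% and 5.55% of all genes), the splicing factor Hnrnpa1 at -0.32 (limma adjusted p = 0.299). Rbmx was at -0.34 (adjusted p = 0.450). Obese mouse 3 was the highest of the 6 in 5 and the lowest in 7 of these 27 genes, beside 20.3% and 19.0% of all genes tested.

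**Figure D4:**
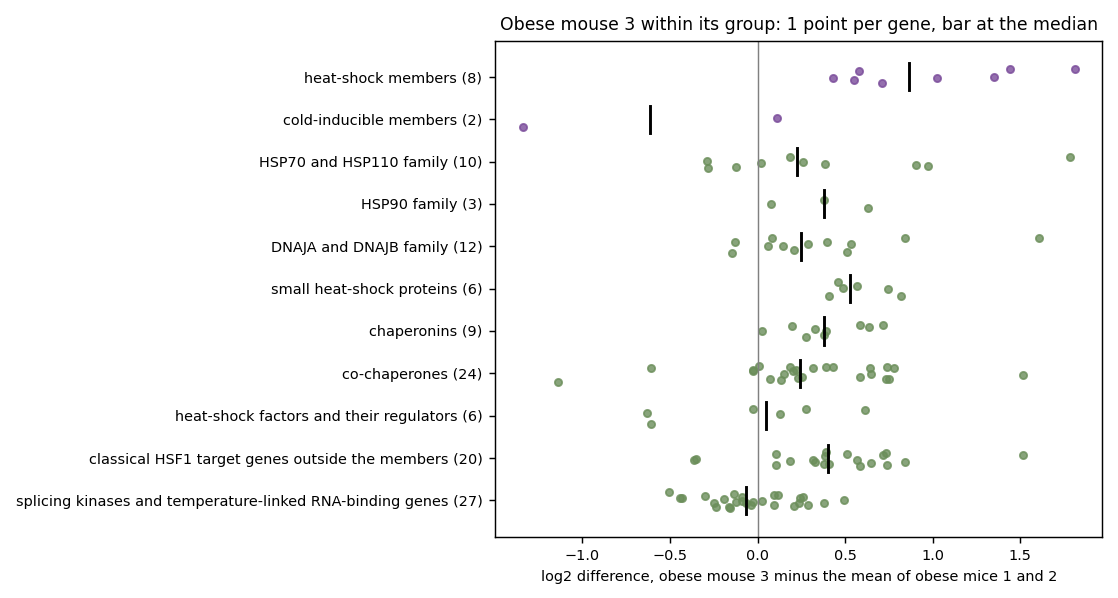
Log2 difference between obese mouse 3 and the mean of obese mice 1 and 2 (horizontal axis), 1 point per gene, for the members (purple) and the listed genes tested (green, number in brackets), with a black bar at each median. All 8 heat-shock members lie right of 0 with a median of 0.87, the HSF1 targets have a median of 0.40 and the splicing and RNA-binding genes one of -0.07.

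Other gene groups moved with obese mouse 3 or with the diets. The 12 immediate early genes summed to 13774 normalized counts in obese mouse 3 against 6566 and 5981 in obese mice 1 and 2. Obese mouse 3 was the highest of the 6 in 7 of these 12 genes, beside 20.3% of all genes tested. Lean mouse 3 also had a high sum, 10531 against 6640 and 5894 in lean mice 1 and 2. Fos, an early response transcription factor, had 1240 and 1262 normalized counts in obese and lean mouse 3 and 207 to 343 in the others. Nr4a1, an early response nuclear receptor, had 3249.6 in obese mouse 3 and at most 1183 elsewhere.

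The 6 atrial cardiomyocyte markers summed to 519638 in obese mouse 3 and 286484 and 287100 in obese mice 1 and 2, while the lean mice lay between 441775 and 481470. Nppa, which encodes atrial natriuretic peptide, made up most of that sum. Of the 6 markers, 3 were highest of the 6 mice and 1, Nr2f2, was lowest in obese mouse 3 (20.3% and 19.0% of all genes tested). The 5 red blood cell genes summed to 1382 in obese mouse 3, the lowest, against 1514 to 2243 in the others, and their defining genes were detected in every mouse. The 8 white adipocyte genes summed to 14552 in obese mouse 3 and to 27155 and 18299.7 in obese mice 1 and 2, against 8798 to 14672 in lean mice.

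Some cell type sums separated the diets. Endothelial markers (6 genes) summed to 17927 to 20253 normalized counts in obese and 15191 to 15696 in lean mice, smooth muscle and pericyte markers (6) to 12077 to 12242 against 9867 to 11521, and macrophage markers (6) to 6583 to 7164 against 4891 to 6214. The separation of a sum is not that of each gene. Rgs5, the largest smooth muscle and pericyte value, overlapped between the diets (5165 to 6194 in obese and 5055 to 6007 in lean mice). The log2 difference was positive for 6 of 6 endothelial, 5 of 6 smooth muscle and pericyte and 5 of 6 macrophage genes (50.8% of all genes). It was negative for Pdgfrb (-0.12) and Csf1r (-0.01). No gene of these 3 lists was called in limma. Lipe, 1 of 8 white adipocyte genes, and Ucp1 and Cidea, 2 of 4 brown adipocyte genes tested, were called higher in obese mice. Of all genes tested, 0.484% were called higher. The white and brown adipocyte sums overlapped between the diets (brown 2882 to 3962 in obese and 2564 to 3527 in lean mice). The log2 difference was positive for 7 of 8 white and 3 of 4 brown genes tested, and negative for Lep (-1.41) and Cox8b (-0.21). The sums of 6 fibroblast and 5 mesothelial markers overlapped between the diets. The 5 ventricular markers summed to 17448 in lean mouse 2 and 6921 to 9918 in the other mice. The part of all these groups in the heat-shock values was not tested.

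Both cold-inducible genes follow the daily rhythm in many tissues, so the clock genes are given beside them. The 5 clock genes of the Bmal1 phase (Arntl, Npas2, Clock, Nfil3, Cry1) summed to 2462 to 2852 normalized counts in obese and 1781 to 2093 in lean mice. The log2 difference was positive for 5 of 5, beside 50.8% of all genes tested. In limma 0 passed the adjusted threshold, and 3 were higher at an unadjusted p under 0.05 (6.66% of all genes). Clock (640 to 807 in obese and 464 to 718 in lean mice) and Cry1 (287 to 459 and 293 to 316) overlapped between the diets. The 9 genes of the Dbp phase had sums that overlapped between the diets, 5146 to 6228 in obese and 6135 to 7165 in lean mice. Of these 9 genes, 4 had a positive log2 difference and the median was -0.07. Dbp itself passed and was lower in obese mice (log2 difference -1.46, limma adjusted p = 0.0094). Tef, Hlf and Per3 were lower too, at -0.76, -0.83 and -0.74, without passing (limma adjusted p = 0.067, 0.062 and 0.067). Per1 was at 0.29 and Per2 at 0.21, also without passing. The time of day of tissue collection is not given in the sources used here, and its part in the Rbm3 and Cirbp values was not tested.

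**Figure D5:**
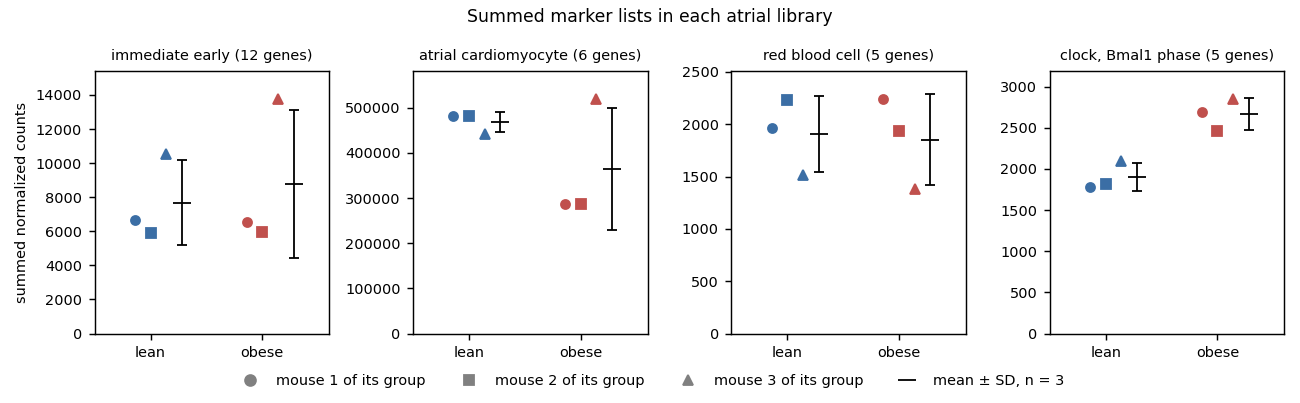
Summed normalized counts (vertical axes, from 0) of 4 marker lists in each lean (blue) and obese (red) mouse, with mean ± SD (n = 3) in black. The immediate early sum is high in obese mouse 3 (13774) and lean mouse 3 (10531), the atrial sum is low in obese mice 1 and 2, and the Bmal1-phase sum separates the diets.

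The genes most like Rbm3 over the 6 mice, among the 10821 genes that averaged 100 normalized counts or more, were Ndnf (Pearson r = 0.995), Sept6 (0.993), Fgf13 (0.991), Hmgxb4 (0.991) and Lingo1 (0.990). All 5 were lower in every obese than in every lean mouse, from -0.38 for Hmgxb4 to -0.96 for Lingo1 on the log2 scale. Those most like Hspa1b were Dnaaf5 (0.995), the immediate early gene Jun (0.992), Gm13509 (0.992), Spata5 (0.989) and Tcirg1 (0.988). Jun had 1478, 1202 and 2035 normalized counts in obese mice 1 to 3 and 1467, 1117 and 1384 in lean mice 1 to 3, the same order of mice as Hspa1b apart from the close values of obese mouse 1 and lean mouse 1. The 6 points share their libraries and 2 diets, and these correlations are a description.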

How the data were processed

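Atrial RNA-seq of 3 obese and 3 lean mice was analysed. The authors sequenced directional libraries as single-end 50-base reads, mapped them to GRCm38 (STAR), used only reads that mapped uniquely and counted them over Ensembl 79 genes (Salmon). Tool versions, and whether counting used strand, are not given in the sources used here. The deposited signal per gene and library is the authors' read count divided by 1 DESeq2 size factor. The 6 columns gave whole reads when divided by their smallest value (within 0.02). The deposited fold changes, test statistics and p-values of the authors' own comparison were not used, and 1 row without a gene identifier, at 0 in every mouse, stayed out.

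The diets were compared on log2(normalized count + 1), which understates changes of low genes, by limma 3.58.1 under R 4.3.3 with a trended variance, over genes averaging 10 or more, with Benjamini-Hochberg adjustment over all genes tested and a threshold of 0.05, without covariates. On simulated data the fit recovered 196 of 200 changed genes among 15143 tested and called 11 unchanged genes. The simulation held only large changes in well-expressed genes and no deviating library. It therefore does not give the recovery of smaller changes in these mice. Alternatives were quantile normalization, mitochondrial genes left out, no variance trend, no filter, a pseudocount of 0.1, edgeR 4.0.16 (quasi-likelihood, TMM) and DESeq2 1.42.0 (Wald test) on recovered reads, a replicate block, and each mouse left out. Gene symbols came from GENCODE names (97.8% of identifiers matched). Exon lengths and 50-base windows came from GENCODE M21 (Ensembl 96), and promoters from RefSeq. Since replicates are labelled only as separate samples, p-values measure the spread between these samples, and limits on reads cover counting error only.

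The members and lists were chosen with earlier results of these data known. The genes named are the 10 members, in each list those called or otherwise the 2 with the smallest p, and the 5 genes most like Rbm3 and like Hspa1b. Hspa1l, Serpinh1, Dnajb5, Hsf1 and the marker and clock genes with values were chosen by role or after their values were seen. Copies and the antisense gene were named for the sequence they share with members. A gene that the rule also names is not reported here.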

Additional observations from a re-analysis of the deposited data

How the results depend on the processing

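Over all genes, the 114 called became 0 without a variance trend (1717 at an unadjusted p under 0.05) and 470 with DESeq2, and ranged from 14 (without lean mouse 2) to 342 (without obese mouse 3) with 1 mouse left out. The other settings gave 87 to 135 genes, and 157 with the replicate block. Of the members, 2 were called in the main comparison, 0 without a variance trend, 0 to 2 with 1 mouse left out, and 2 in the other settings. None of the 140 log2 differences recomputed for the 10 members moved by more than the spread between replicates, although that spread is wide for Hspa1a, Hspb1 and Cirbp, and signs changed for members that were not called. Of the listed genes, 0 were called in the main comparison, 1 without a filter, 2 with DESeq2, 1 with the replicate block and 0 to 1 with 1 mouse left out. Fkbp5 was called in each of these, and was the only one outside DESeq2. The named listed genes kept their direction in 238 of 238 values. Over all genes, deviations of same-numbered mice correlated at 0.12, -0.03 and -0.00. Such correlations cannot show whether same-numbered mice were handled together, and the replicate block is a check only. The causes of these changes were not tested. With 3 mice per diet, a difference that missed the threshold is not shown to be absent.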
